A study of Mus musculus with 12 samples.

Results

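The Polycomb group genes described here are 10 genes whose products write repressive marks on histones. They were chosen by name, as every probe on the array whose target name, letter case ignored, was EZH1, EZH2, EED, SUZ12, RING1, RNF2, BMI1, PCGF1, PCGF5 or PCGF6. This took 15 of 45281 probes and 10 of 30774 target names. Their RNA was measured in 12 end-stage lymphomas from C57BL/6 mice, 1 array per lymphoma, all carrying the Eµ-Myc transgene. In that transgene, an enhancer of the immunoglobulin heavy chain locus drives the Myc oncogene in the B lineage. The wildtype group held 6 lymphomas with intact Smchd1, and the null group held 6 that were homozygous for a gene trap allele of Smchd1 on top of the transgene. The cells were sorted from fresh tissue, and the sources used here do not give the sort markers or the age and sex of the mice. Nothing in the labels states that replicates came from separate mice, so the p-values cover no more than the spread among the samples at hand. Smchd1 encodes an SMC-family protein needed for silencing of the inactive X chromosome and of some imprinted genes.

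Polycomb proteins act in 2 main complexes. In Polycomb repressive complex 2 (PRC2), Ezh1 or Ezh2 is the enzyme that methylates lysine 27 of histone H3, and Eed and Suz12 are core subunits that the enzyme needs. In Polycomb repressive complex 1 (PRC1), Ring1 or Rnf2 (also called Ring1B) places ubiquitin on histone H2A, and a Pcgf protein, of which Bmi1 is one, decides which form of the complex is built. In lymphocytes, Ezh2 is known to be high in dividing cells. Bmi1 is known to repress Cdkn2a, the locus that encodes the cell cycle inhibitors p16Ink4a and p19Arf, and to cooperate with Myc in lymphoma in mice.

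Promoters of the 10 genes were read from the RefSeq table for GRCm38.p6, as the 250 bases before each listed start, and 9 of the 10 genes had at least 1 entry, with 11 promoters in all. Each was searched on both strands for the E2F words TTTCCCGC, TTTCGCGC, TTTGCCGC and TTTGGCGC and for the E-box CACGTG, the word that Myc with its partner Max is known to bind. The 2 kinds of match lay in different promoters, so none overlapped. An E2F word was present in 1 of the 11 promoters, that of Suz12, against 1.86% of all 32851 promoters in the table. The E-box was present in 1 of the 11, that of Bmi1, against 6.02% of all. Both promoters are shown because they are the ones with a match. Suz12 is on the plus strand at chr11:79992856-79993105 and Bmi1 on the plus strand at chr2:18676768-18677017, both in GRCm38.p6. Capitals mark the match, which begins 219 bases before the start in Suz12 and 215 bases before it in Bmi1.
Suz12: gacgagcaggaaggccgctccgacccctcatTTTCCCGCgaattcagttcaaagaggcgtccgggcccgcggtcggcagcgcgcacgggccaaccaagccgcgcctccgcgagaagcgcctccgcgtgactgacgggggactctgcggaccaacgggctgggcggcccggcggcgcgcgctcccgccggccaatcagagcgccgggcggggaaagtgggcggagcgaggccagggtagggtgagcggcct
Bmi1: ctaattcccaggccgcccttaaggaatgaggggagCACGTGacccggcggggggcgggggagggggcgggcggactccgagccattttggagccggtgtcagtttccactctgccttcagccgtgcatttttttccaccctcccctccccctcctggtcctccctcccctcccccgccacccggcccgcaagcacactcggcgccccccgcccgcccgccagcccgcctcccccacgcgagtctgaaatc
A match is a description of letters and does not show that a factor binds there.

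On the 12 arrays, between 14905 and 17724 of the 45281 probes were detected, meaning brighter than the negative control probes at a detection p under 0.05. Each of 2 BeadChips, the glass slides that carry the arrays, held 3 wildtype and 3 null samples, and mean raw intensities were 523.88 to 599.15 on BeadChip 1 and 254.65 to 468.83 on BeadChip 2. Levels below are normalized log2 intensities, so 1 unit is a 2-fold step, and levels of different probes are not set against each other. Smchd1 (ILMN_1242619) had a median log2 intensity of 10.23 in wildtype (9.57 to 10.50) and of 5.63 in null lymphomas (5.15 to 6.95). The libraries labelled null were all below the wildtype ones, a fitted log2 difference of -4.37. Of the B cell markers, 5 of 6 were tested, and their mean log2 level was 8.01 to 11.24 in wildtype and 7.91 to 10.81 in null lymphomas, with wildtype 2 and null 2 lowest. T cell markers (6 of 8 tested) were highest in wildtype 1, wildtype 6 and null 1, at mean log2 levels of 8.53, 8.27 and 10.20, against 5.09 to 6.73 in the other lymphomas. By the probe of each detected most often, Lck was detected on 12 arrays, Cd3g and Zap70 on 11 each, Cd3d on 10, Cd3e on 7 and Cd4 on 4. Cd8a, a defining marker of cytotoxic T cells, was detected on 0 arrays. In bulk samples such as these, fewer cells of a type and less RNA per cell cannot be told apart.

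All 10 genes entered the tests, which needed detection on at least 3 arrays, and 8 of them were detected on all 12. Of the 15 probes, 13 entered the tests and 2 were detected on no array (ILMN_2555484 of Ezh1 and ILMN_2606429 of Ezh2). The genes differed widely in how far their level varied between lymphomas. Ezh2, Bmi1 and Pcgf5 had standard deviations (SD) over the 12 lymphomas above the median of all 12822 genes tested, which was 0.47 log2 units, and the other 7 had SDs below it.

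**Figure D1:**
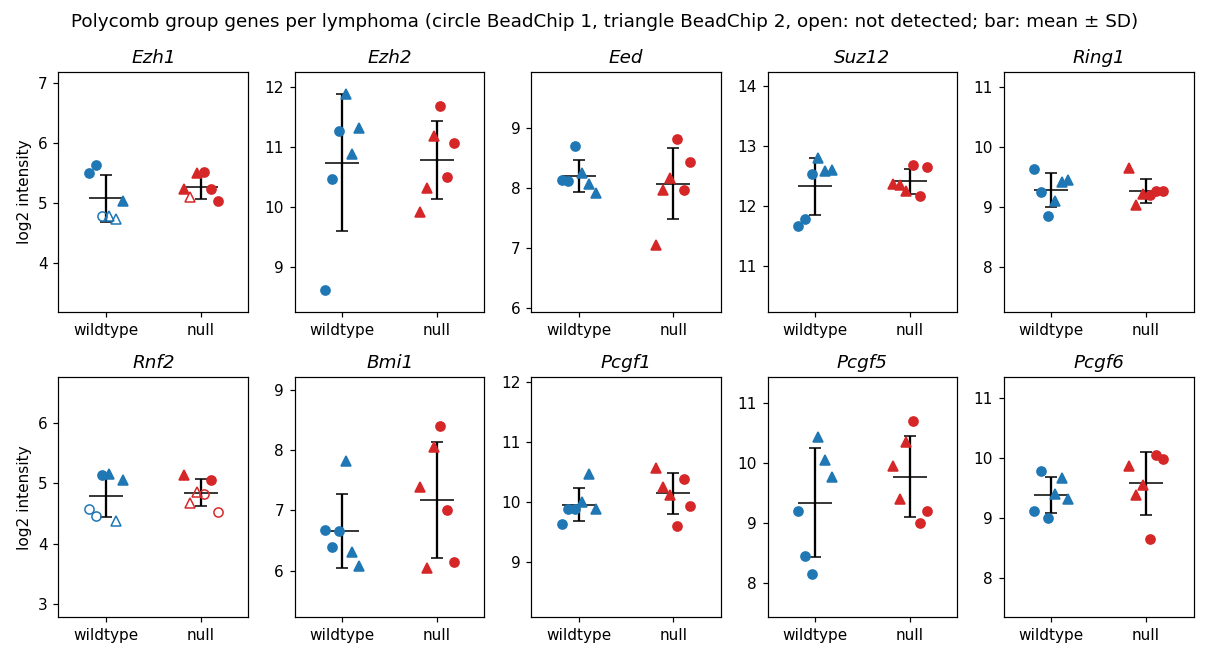
Log2 intensity (vertical axis) of the brightest probe of each of the 10 genes in each wildtype (blue) and null (red) lymphoma. Circles are arrays of BeadChip 1 and triangles those of BeadChip 2, open symbols are arrays where the probe was not detected, and bars give the mean ± SD of 6 lymphomas. The 2 groups overlap for every gene, and Ezh2, Bmi1 and Pcgf5 spread over the widest ranges.

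Ezh2, the main PRC2 enzyme of dividing cells (chromosome 6), had log2 levels of 8.62, 10.46, 11.26, 11.88, 10.88 and 11.31 in wildtype lymphomas 1 to 6. In null lymphomas 1 to 6 it had log2 levels of 9.91, 10.32, 11.17, 11.68, 10.50 and 11.06. Wildtype 1 lay lowest of all 12, null 1 was the next lowest, and wildtype 4 and null 4 were the highest of their groups. The range over the 12 lymphomas was 9.59-fold, and the SD of 0.88 log2 units was larger than that of 85.3% of genes. That SD, taken on values without background correction, was 9.74 times the median standard error that the spread of beads on an array gives. A second, dimmer probe of Ezh2 (ILMN_2988572) was detected on all 12 arrays and ranked the lymphomas alike, with r = 0.908 (permutation p = 8e-05, adjusted p = 0.00048 over 6 probe pairs) and rho = 0.881.

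The other PRC2 genes varied less. Ezh1, the enzyme known for its role in resting cells (chromosome 11), was near the detection limit, with a median log2 level of 4.91 in wildtype (4.73 to 5.63, detected on 3 of 6 arrays) and 5.23 in null lymphomas (5.03 to 5.52, detected on 5 of 6). Its SD between lymphomas, on values without background correction, was 1.66 times the bead error. Eed, the subunit that binds methylated histone H3 (chromosome 7), had a median log2 level of 8.13 in wildtype (7.92 to 8.70) and 8.07 in null lymphomas (7.05 to 8.82). Null 1 lay lowest and null 4 highest of all 12. Suz12, which holds the complex together (chromosome 11), had a median log2 level of 12.56 in wildtype (11.67 to 12.80) and 12.36 in null lymphomas (12.17 to 12.69). Wildtype 1 and wildtype 2 were the lowest, and the null lymphomas lay inside the wildtype range. The second probe of Suz12 (ILMN_2764991, detected on 8 arrays) tracked the first only weakly, with r = 0.289 (permutation p = 0.364, adjusted p = 0.364) and rho = 0.140.

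The PRC1 enzymes are Ring1 and Rnf2. Ring1 (chromosome 17) had a median log2 level of 9.32 in wildtype (8.85 to 9.63) and 9.24 in null lymphomas (9.04 to 9.64). Its SD of 0.23 log2 units was larger than that of 4.71% of genes. On values without background correction the SD was 0.21, which is 2.02 times the bead error. Its second probe (ILMN_2770715, detected on all 12) had r = 0.439 with the first (permutation p = 0.153, adjusted p = 0.184) and rho = 0.280. Rnf2 (chromosome 1), the enzyme of most PRC1 in embryonic stem cells, was detected on 5 arrays only, at a median log2 level of 4.82 in wildtype (4.38 to 5.16) and 4.84 in null lymphomas (4.53 to 5.14). Its SD on values without background correction was 1.77 times its bead error. At levels this near background the SD says little about how far the gene varied.

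Bmi1, also called Pcgf4 (chromosome 2), had log2 levels of 6.68, 6.39, 6.66, 7.83, 6.31 and 6.07 in wildtype lymphomas 1 to 6. In null lymphomas 1 to 6 it had log2 levels of 7.40, 6.03, 8.05, 8.41, 7.01 and 6.15. Null 4, null 3 and wildtype 4 stood highest, and wildtype 6, null 2 and null 6 were the lowest. The range was 5.17-fold, and the SD of 0.82 log2 units was larger than that of 82.8% of genes. On values without background correction the SD was 0.52, which is 7.61 times the bead error.

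Pcgf5, a subunit of a PRC1 form without Cbx proteins (chromosome 19), had a median log2 level of 9.47 in wildtype (8.15 to 10.43) and 9.68 in null lymphomas (9.0 to 10.70). Its 3 highest lymphomas, null 4, wildtype 4 and null 3, were also the 3 highest for Bmi1. Pcgf1, the subunit of the form that holds Bcor (chromosome 6), had a median log2 level of 9.88 in wildtype (9.62 to 10.47) and 10.19 in null lymphomas (9.60 to 10.56). Pcgf6, the subunit of the form that holds Mga and L3mbtl2 (chromosome 19), had a median log2 level of 9.36 in wildtype (9.01 to 9.78) and 9.72 in null lymphomas (8.65 to 10.05). For Pcgf6 both the lowest lymphoma, null 4, and the highest, null 5, were null, and for Pcgf1 the lowest was null 4 and the highest null 1.

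No member was called between the BeadChips. For Pcgf5 the difference, BeadChip 2 minus BeadChip 1, was 0.88 ± 0.36 log2 units (SE, limma adjusted p = 0.244), and 0 of the 10 genes passed, where 2.56% of all genes did and 0.507% were higher on BeadChip 2.

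Comparing null with wildtype lymphomas asks whether loss of Smchd1, itself a silencing factor, goes along with a different level of Polycomb genes. No difference was called for any of them. By limma over 12822 genes with Benjamini-Hochberg adjustment, 0 of the 10 genes passed an adjusted p of 0.05 in either direction, where 0.0234% of all genes did (0.0078% higher and 0.0156% lower in null), 3 in number with Smchd1 among them. At an unadjusted p under 0.05, 0 of the 10 passed against 1.46% of genes. In the fit over 18921 probes, 0 of the 13 tested probes passed, against 0.0159% of probes. The wildtype and null ranges overlapped for all 10 genes, and 0.0858% of all genes had groups without overlap. Fitted differences were positive for 8 genes and negative for 2, with a median of 0.13 log2 units, against a median of 0.00 over all genes.

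The fitted difference was greatest for Bmi1, at 0.52 ± 0.43 log2 units (SE), which is 1.43-fold higher in null, with a 95% interval of -0.41 to 1.45 (limma unadjusted p = 0.250, adjusted p = 1.00). Pcgf5 followed with 0.43 ± 0.42 (interval -0.49 to 1.35). For Ezh2 the difference was 0.04 ± 0.49, and the interval of -1.01 to 1.09 leaves room for a change of 2-fold either way. Its second probe gave -0.22 ± 0.26, of the opposite sign. Without wildtype 1, the lowest lymphoma, the difference of Ezh2 was -0.38.

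Intervals were narrower for most others. Suz12 differed by 0.08 ± 0.22 (interval -0.40 to 0.56), Ring1 by -0.01 ± 0.17 (interval -0.39 to 0.36) and Eed by -0.13 ± 0.26 (interval -0.70 to 0.45). Ezh1, Pcgf1 and Pcgf6 had differences of 0.18 to 0.20, and Rnf2 of 0.05. The whole interval lay within 1 log2 unit of 0 for 7 of the 10 genes, the exceptions being Ezh2, Bmi1 and Pcgf5. A p above the threshold does not show that the groups are alike, and these intervals give the changes that 6 lymphomas a group can still hold.

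**Figure D2:**
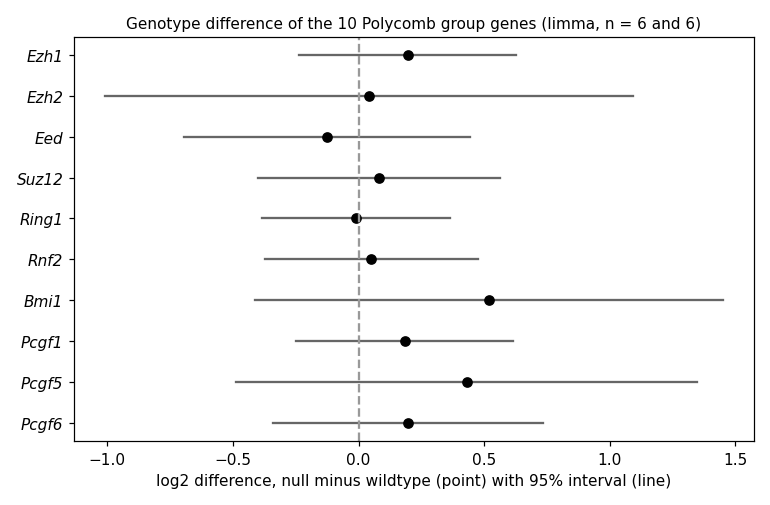
Fitted log2 difference, null minus wildtype (horizontal axis), of each of the 10 genes, as a point with its 95% interval from limma (6 wildtype and 6 null lymphomas). Every interval spans 0, and those of Ezh2, Bmi1 and Pcgf5 are the widest.

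Polycomb partners, genes that act against Polycomb marks, Polycomb targets with Arf-p53 genes, and proliferation genes were read from the same fit. Of 74 tested genes in these 6 lists, 0 were called. Of the PRC2 partners, 7 of 10 were tested, 4 with positive and 3 with negative differences (median 0.01). Mtf2, a partner that recruits PRC2 to unmethylated CpG-rich DNA, had the smallest unadjusted p, 0.0494, with a difference of -0.63 ± 0.29 log2 units. Its median log2 level was 10.18 in wildtype (9.67 to 10.81) and 9.43 in null lymphomas (8.70 to 10.38), and the groups overlapped. Aebp2, another PRC2 partner, differed by 0.17 ± 0.18. Of the PRC1 partners, 16 of 22 were tested, 7 positive and 9 negative (median -0.01). Among them Bcor, the corepressor that assembles with Pcgf1, differed by 0.26 ± 0.22, and Cbx6, a chromobox subunit, by 0.52 ± 0.44.

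Genes that act against Polycomb marks came next. Of the H2A deubiquitinase list, which removes the mark that Ring1 and Rnf2 place, 8 of 8 were tested, 4 positive and 4 negative (median 0.03). Asxl2, a cofactor of that enzyme, differed by -0.30 ± 0.22, and Hcfc1, one of its partners, by -0.22 ± 0.20. Of the H3 lysine 27 demethylases and Trithorax genes, 15 of 15 were tested, 4 positive and 11 negative (median -0.09). The demethylase Kdm6b differed by -0.28 ± 0.24 and the Y-linked Uty by -0.29 ± 0.26, the latter detected on 4 wildtype and 2 null arrays. Of the known Polycomb targets and Arf-p53 genes, 8 of 10 were tested, 2 positive and 6 negative (median -0.10). Ccng1, a p53 target, differed by 0.26 ± 0.26, and Cdkn1c, an imprinted cell cycle inhibitor, by 0.92 ± 1.17.

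Of the proliferation genes, which cover DNA replication and mitosis, 20 of 22 were tested, 12 positive and 8 negative (median 0.09). Mcm6 differed by -0.23 ± 0.39 and Mcm5 by 0.17 ± 0.30, both parts of the helicase that opens DNA for replication. Read against 0.0234% of all genes called, a count of 0 in these lists is not particular to them.

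Cdkn2a was next set against the Polycomb genes across lymphomas, since Bmi1 and Ezh2 are known to repress it. Its brightest probe (ILMN_1221177) had log2 levels of 5.31, 6.70, 11.88, 7.19, 4.76 and 5.03 in wildtype lymphomas 1 to 6. In null lymphomas 1 to 6 it had log2 levels of 5.63, 8.01, 7.45, 6.86, 5.32 and 4.81. Wildtype 3 stood far above all others, null 2 was next, and the probe was not detected in wildtype 5 and null 6. The other 2 probes of Cdkn2a, detected on 7 and 4 arrays, were also highest in wildtype 3, and pairs of the 3 probes correlated at r = 0.914 to 0.920 (adjusted permutation p of 0.0028 to 0.00321 over 6 probe pairs) and rho = 0.580 to 0.741. The probes disagreed in wildtype 4, at 7.19 on the brightest. There the other 2 were not detected, at 4.35 (ILMN_1226950) and 4.76 (ILMN_1227342). Which of its transcripts each probe reads is not given in the files. Null and wildtype differed by -0.46 ± 1.07 log2 units, and without wildtype 3 the sign turned, to 0.55. The neighbouring Cdkn2b, which encodes p15Ink4b, was detected on 0 arrays.

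No relation of Bmi1 to Cdkn2a passed the test over the 12 lymphomas. Pearson's r was 0.153 (permutation p = 0.66, adjusted p = 0.777 over 20 relations) and Spearman's rho was 0.315 (permutation p = 0.32, adjusted p = 0.582). Wildtype 3, with the highest Cdkn2a, had a Bmi1 level of 6.66, near the middle. The value rests on few lymphomas: without wildtype 3 and null 2, the pair farthest from the median Cdkn2a level, r was 0.781 (permutation p = 0.0114, not adjusted) and rho 0.842 over the other 10. Without wildtype 3 alone r was 0.426. Within BeadChips r was 0.0547 and 0.364 (exact permutation p = 0.863 and 0.46, n = 6 each), and it was 0.268 within wildtype and 0.209 within null lymphomas (exact permutation p = 0.481 and 0.651). With the other probes of Cdkn2a, r was -0.0924 and 0.00194. Wildtype 4, high in Bmi1 at 7.83, is among the 10 lymphomas that gave r = 0.781. Its Cdkn2a level of 7.19 comes from the brightest probe, and the other 2 probes were not detected there.

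The relation of Ezh2 to Cdkn2a did not pass either. Pearson's r was 0.286 (permutation p = 0.332, adjusted p = 0.604) and rho was 0.203 (permutation p = 0.528, adjusted p = 0.796). Without wildtype 3 and null 2, r was 0.389 (permutation p = 0.274). Within BeadChips it was 0.401 and 0.0759 (exact permutation p = 0.333 and 0.885), and within wildtype and null lymphomas 0.331 and 0.146 (exact permutation p = 0.432 and 0.779).

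Of the 10 genes, 5 had positive and 5 negative correlations with Cdkn2a, and Ring1 alone passed the adjustment over 20 relations. Ring1 was lowest, at 8.85, in wildtype 3, the lymphoma with the highest Cdkn2a, and highest, at 9.64 and 9.63, in null 1 and wildtype 1, whose Cdkn2a levels were 5.63 and 5.31. Pearson's r was -0.794 (permutation p = 0.00086, adjusted p = 0.0086) and rho was -0.811 (permutation p = 0.00209, adjusted p = 0.0264). Without wildtype 3 and null 2, r was -0.592 (permutation p = 0.0772) and rho -0.673 over the other 10, so the sign stayed and the call was lost. Within BeadChips it was -0.815 and -0.825 (exact permutation p = 0.0736 and 0.075), within wildtype -0.901 and within null lymphomas -0.572 (exact permutation p = 0.0125 and 0.228). Over the 6 means by replicate number it was -0.778 (exact permutation p = 0.0542).

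The relation of Ring1 did not pass for its second probe, with median scaling, or in a fit over all genes. For the second Ring1 probe r was -0.346 (permutation p = 0.26), and with median scaling in place of quantile normalization it was -0.0770 for the first (permutation p = 0.792). In limma with the Cdkn2a level as covariate, the slope of Ring1 was -0.09 ± 0.04 log2 units per log2 unit of Cdkn2a (unadjusted p = 0.0278, adjusted p = 1.00). In that fit 0 of the 10 genes passed, and 0% of the 12821 genes tested did.

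**Figure D3:**
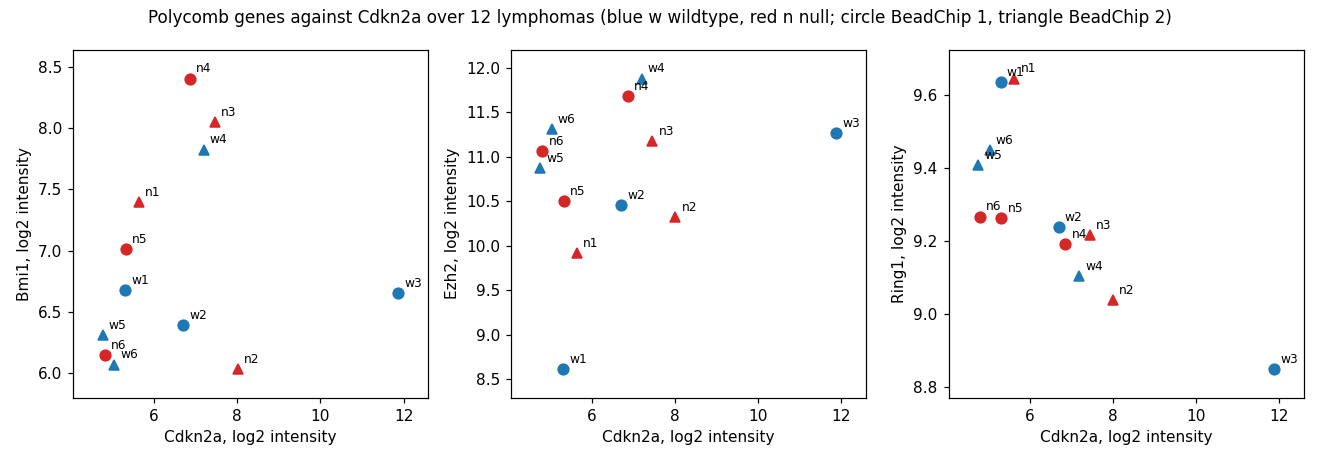
Log2 intensity of Bmi1, Ezh2 and Ring1 (vertical axes) against that of Cdkn2a (horizontal axis), 1 point per lymphoma (w wildtype, blue, n null, red, circles BeadChip 1 and triangles BeadChip 2). Wildtype 3 lies far to the right at a Cdkn2a level of 11.88, and r is 0.153, 0.286 and -0.794.

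The level of Ezh2 followed that of the proliferation genes. The mean log2 level of the 20 tested proliferation genes, which include no Polycomb gene, was 8.45, 10.40, 10.82, 11.10, 10.83 and 10.71 in wildtype lymphomas 1 to 6. In null lymphomas 1 to 6 it was 9.41, 10.36, 10.93, 10.81, 10.33 and 10.77. Wildtype 1 and null 1 were lowest, as for Ezh2, and wildtype 4 was highest in both. Pearson's r was 0.946 (permutation p = 1e-05, the smallest the resamples can give, adjusted p = 0.0002 over 20 relations) and rho was 0.804 (permutation p = 0.00264, adjusted p = 0.0264). Without wildtype 1 and null 1, r was 0.880 (permutation p = 0.00109) and rho 0.661.

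The relation was present in each BeadChip and in each genotype. Within BeadChips r was 0.969 and 0.889 (exact permutation p = 0.00556 each, n = 6), within wildtype 0.970 and within null lymphomas 0.872 (exact permutation p = 0.00833 and 0.025). For the second probe of Ezh2 r was 0.873. In limma with the proliferation mean as covariate, Ezh2 rose by 1.10 ± 0.13 log2 units per log2 unit of the mean (adjusted p = 0.000235). Of the 10 genes, 1 passed in that fit, where 13.2% of all 12822 genes did and 7.22% rose. Without wildtype 1, the adjusted p of Ezh2 was 0.0247, and the number of genes called fell from 1698 to 421. Wildtype 1 and null 1 also had high T cell marker levels (8.53 and 10.20). Their B cell marker levels (11.24 and 10.81) were the highest of their groups as well. The part of these markers in the relation was not tested. Wildtype 6, with a T cell marker level of 8.27, had an Ezh2 level of 11.31 and a proliferation mean of 10.71. Without wildtype and null lymphomas 1 and 2 together, r was 0.783 over the other 8 (exact permutation p = 0.0254). Over the 6 means of the wildtype and the null lymphoma of each replicate number, an alternative chosen after seeing the data, r was 0.948 (exact permutation p = 0.00139, the smallest that 6 values allow).

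No other PRC2 gene passed after adjustment. Suz12 had r = 0.708 with the proliferation mean (permutation p = 0.0152, adjusted p = 0.076) and rho = 0.615 (permutation p = 0.0382, adjusted p = 0.255). It was 0.777 and 0.466 within BeadChips (exact permutation p = 0.0139 and 0.386), and 0.816 and 0.307 within wildtype and null lymphomas (exact permutation p = 0.00694 and 0.628). Without wildtype 1 and null 1, r was 0.713 (permutation p = 0.0204), and without wildtype 1 alone it was 0.441. Eed had r = 0.463 (permutation p = 0.142, adjusted p = 0.463). For Eed, r was 0.525 and 0.970 within BeadChips 1 and 2 (exact permutation p = 0.311 and 0.00694, not adjusted). It was 0.167 within wildtype and 0.914 within null lymphomas (exact permutation p = 0.615 and 0.0167, not adjusted). The limma slope of Eed was 0.27 over all 12 lymphomas (adjusted p = 0.311) and 0.81 without wildtype 1 (adjusted p = 0.0668). Ezh1 had r = -0.413 (permutation p = 0.189, adjusted p = 0.473). Of the 10 genes, 7 had positive and 3 negative correlations with the proliferation mean, and Ezh2 alone passed.

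Ring1 had r = -0.677 (permutation p = 0.0145, adjusted p = 0.076), which was -0.0554 without wildtype 1 and null 1. Bmi1 had r = 0.138 (permutation p = 0.699, adjusted p = 0.777) and Pcgf5 r = 0.213 (permutation p = 0.521, adjusted p = 0.777). Whether these correlations differ from that of Ezh2 was not tested.

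**Figure D4:**
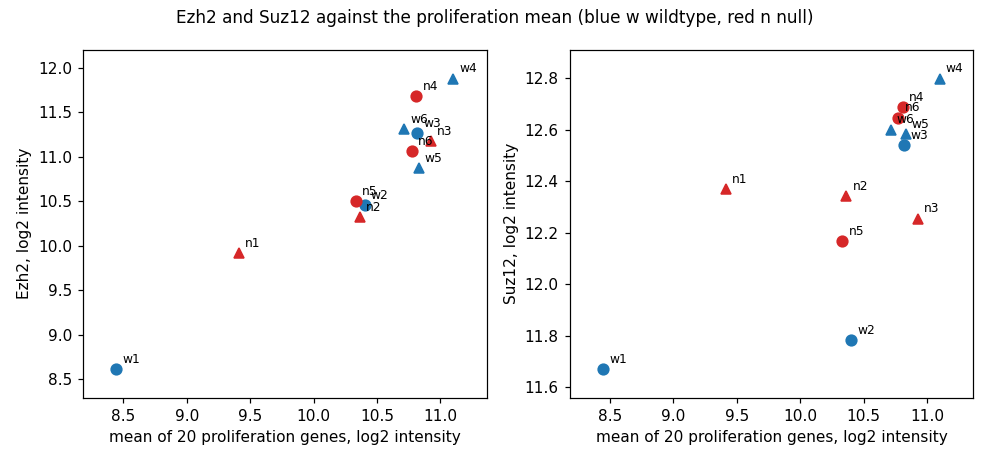
Log2 intensity of Ezh2 (left) and Suz12 (right) on the vertical axes against the mean log2 intensity of 20 proliferation genes on the horizontal axis, 1 point per lymphoma (w wildtype, blue, n null, red, circles BeadChip 1 and triangles BeadChip 2). Ezh2 runs from 8.62 to 11.88 along a mean of 8.45 to 11.10, with r = 0.946, and for Suz12 r is 0.708 (adjusted permutation p = 0.076).

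The 10 genes were also compared with each other, in 45 pairs, of which 23 had a positive and 22 a negative r. After adjustment over the 45, 0 pairs passed, and 7 had an unadjusted permutation p under 0.05. The closest pair was Ezh2 and Suz12, partners in PRC2, with r = 0.810 (permutation p = 0.00133, adjusted p = 0.0599) and rho = 0.783 (permutation p = 0.00368, adjusted p = 0.166). Within BeadChips it was 0.865 and 0.673, and without wildtype 1 and null 1 it was 0.757. Bmi1 and Pcgf5, which shared their 3 highest lymphomas, had r = 0.629 (permutation p = 0.03, adjusted p = 0.225), and 0.810 and 0.840 within BeadChips. For this pair rho was 0.476 (permutation p = 0.12, adjusted p = 0.592). Within wildtype r was 0.365 and within null lymphomas 0.862, and without null 3 and null 4 it was 0.361.

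Negative correlations also occurred among the pairs, again short of the adjusted threshold. Eed and Pcgf1 had r = -0.701 (permutation p = 0.00748, adjusted p = 0.168), and without null 1 and null 4 it was -0.371. Within wildtype it was -0.154 and within null lymphomas -0.931. Ezh1 and Suz12 had r = -0.675 (permutation p = 0.0156, adjusted p = 0.176), with Ezh1 near its detection limit. For this pair r was -0.934 within wildtype and -0.010 within null lymphomas. Eed and Ring1 had r = -0.640 (permutation p = 0.0251, adjusted p = 0.225). Within BeadChips it was -0.578 and -0.760, within wildtype -0.821 and within null lymphomas -0.709. It was -0.542 without null 1 and null 4, and -0.210 without wildtype 3 and null 1. Ezh2 and Ring1 had r = -0.603 (permutation p = 0.0384, adjusted p = 0.247). It was -0.0825 without wildtype 1 and null 1, and -0.578 without wildtype 3 and null 1. Pcgf1 and Pcgf6, of 2 different PRC1 forms, had r = 0.681 (permutation p = 0.0154, adjusted p = 0.176).

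**Figure D5:**
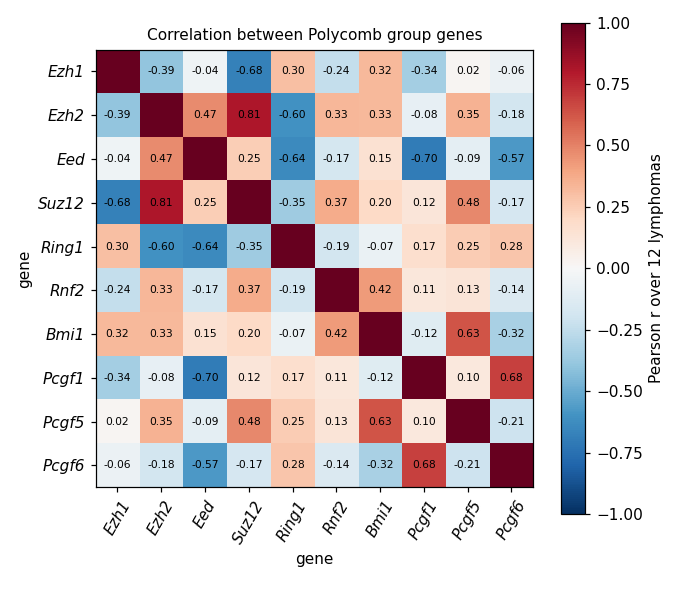
Pearson's r over the 12 lymphomas between each pair of the 10 genes (both axes list the genes, red positive and blue negative). Ezh2 with Suz12 has the highest value, 0.81, and Eed with Pcgf1 the lowest, -0.70.

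Among all 12822 genes, those with levels most like Ezh2 over the 12 lymphomas were Gm10131 (r = 0.964), Mad2l1 (r = 0.957), which encodes a spindle checkpoint protein, and Pbk (r = 0.957), a kinase active in mitosis. In all, 394 genes, 3.08%, had r above 0.8 with Ezh2. For Bmi1 the most alike were Sccpdh (r = 0.925, detected on 7 arrays), Wwc2 (r = 0.904) and LOC100046320 (r = 0.880), and 20 genes, 0.156%, had r above 0.8. These values describe the 12 lymphomas only and carry no test.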

How the data were processed

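Gene expression was measured on Illumina MouseWG-6 version 2 BeadChips, 1 array per sorted lymphoma, and groups and replicate numbers come from the sample titles. The deposited intensity of a probe is the mean over its beads, exported from GenomeStudio 1.6.0 without normalization, per the file headers. The deposited detection values are a fraction, 1 minus the detection p-value, and a second deposited table gives that p-value. Per the file headers, the bead SD and the number of beads stand beside each intensity. The deposited log2 values were made with R 2.15.1 and limma 3.12.1, per the submitters' processing notes, and the values computed here differed from them by at most 5e-09.

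Here, limma 3.58.1 in R 4.3.3 corrected background with the 936 negative controls (neqc), added an offset of 16, quantile normalized the arrays and took log2. Probes with a detection p under 0.05 on at least 3 of 12 arrays were tested, 18921 in all, and the brightest probe per gene was kept for 12822 genes. Null was compared with wildtype by lmFit and eBayes without covariates, with Benjamini-Hochberg adjustment over all features and a threshold of 0.05. Correlations used scipy 1.17.1 and two-sided permutation tests, with 100000 resamples or exact for n under 10. The fits were checked on simulated data. The number of arrays limits the precision.

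The 10 genes and the gene lists were chosen with earlier results of these data known. Genes named are the 10 members, Cdkn2a, Smchd1, the 2 genes with the smallest unadjusted p in each of the 6 lists read beside the members, and the 3 genes most like Bmi1 and Ezh2. Same-numbered samples had correlations of their deviations from the group means from -0.260 to 0.681, above 0.1 in 4 of 6 pairs. The numbers were not taken as pairs, which would need all 6, and relations were also computed over the 6 means by replicate number. Alternatives covered background correction, offset, scaling, filter, BeadChip, array weights, probes and left-out lymphomas. Detected probes per array and raw intensities are in the report. Chromosomes and promoters are from RefSeq tables for GRCm38.p6.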

Additional observations from a re-analysis of the deposited data

Results flagged for a closer look

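6 of 34 groups of 6 lymphomas held 1 lymphoma far from the others of its group, by the gap to its nearest neighbour over the whole range, and chance flags about 1 in 20 groups. All 6 were in the wildtype group. They are not independent of each other, as all 3 Cdkn2a probes were flagged in wildtype 3, and an Ezh2 probe and the proliferation mean in wildtype 1. The count of 6 is therefore no measure of an excess over that rate. The second probe of Ezh2 (ILMN_2988572) had a log2 level of 4.86 in wildtype 1, below the nearest at 5.78. The proliferation mean was 8.45 in that lymphoma, below the nearest at 10.40. Bmi1 had a log2 level of 7.83 in wildtype 4, above the nearest at 6.68. All 3 probes of Cdkn2a stood apart in wildtype 3, at 11.88 for ILMN_1221177 (nearest 7.19), 12.10 for ILMN_1226950 (nearest 7.03) and 8.58 for ILMN_1227342 (nearest 5.61).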

How the results depend on the processing

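Under each of 24 alternatives, 0 of the 10 Polycomb genes and 0 of the other tested genes of the lists were called between null and wildtype, and the fit with replicate number as a block (replicate block) gave 0 as well and turned no sign. Signs were not stable: Bmi1 and Pcgf6 kept theirs throughout, and 8 genes changed sign at least once. The difference turned to -0.074 for Ezh2 with median scaling. On BeadChip 1 alone it turned to -0.034 for Ezh1, 0.094 for Eed, 0.012 for Hcfc1, -0.24 for Ccng1, 0.33 for Mcm6 and 0.28 for the second Ezh2 probe. On BeadChip 2 alone it turned to -0.89 for Ezh2, -0.34 for Suz12, -0.18 for Pcgf5, 1.37 for Cdkn2a, -1.11 for Cdkn1c and -0.27 for Mcm5, and Smchd1 was -4.09 there (limma adjusted p = 0.211). Array weights gave -0.11 for Ezh2, 0.010 for Eed, -0.062 for Suz12, -0.015 for Rnf2 and 0.069 for the second Ring1 probe. Without the 4 lymphomas numbered 1 and 2 it was -0.23 for Ezh2, 0.12 for Eed, -0.19 for Suz12, 0.031 for Ring1, -0.12 for Rnf2, -0.051 for Pcgf1, -0.11 for the second Suz12 probe and 0.27 for the second Ring1 probe. Leaving out 1 lymphoma at a time gave -0.38 to 0.27 for Ezh2, -0.050 to 0.18 for Suz12, -0.097 to 0.060 for Ring1, -0.032 to 0.12 for Rnf2, -0.27 to 0.079 for Eed, -0.87 to 0.55 for Cdkn2a, -0.075 to 0.35 for Mcm5, -0.53 to 0.035 for Mcm6 and -0.23 to 0.0043 for the second Ring1 probe. Bmi1 against Cdkn2a had r = 0.781 without the pair of lymphomas farthest in Cdkn2a, -0.0924 with the probe ILMN_1227342, and 0.0774 to 0.426 leaving out 1 lymphoma. Suz12 against the proliferation mean had r = 0.466 on BeadChip 2, 0.307 in null lymphomas, 0.119 for its second probe, 0.637 without the lymphomas numbered 1 and 2, and 0.441 to 0.828 leaving out 1. Ring1 against Cdkn2a had r = -0.0770 with median scaling, -0.815 and -0.825 within BeadChips, -0.572 in null lymphomas, -0.592 without the farthest pair, -0.346 for its second probe, -0.778 over the 6 means by replicate number and -0.841 to -0.691 leaving out 1. Of 20 relations 2 passed, against 4 with BeadChip means removed, 1 without the 4 lymphomas numbered 1 and 2, 1 without wildtype 3 and 1 to 3 leaving out 1. Ezh2 against the proliferation mean had r from 0.783 to 0.970 and an unadjusted permutation p of at most 0.0254 in each alternative run. The cause of these shifts was not tested. With 6 lymphomas a group, intervals of Ezh2, Bmi1 and Pcgf5 reach past a 2-fold change, and the levels of Ezh1, Rnf2 and the second Suz12 probe lie near background.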

Other observations

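Markers of other blood cells were present at levels that differed between lymphomas. Erythroid markers (5 of 6 tested) had a mean log2 level of 5.19 to 7.64 in wildtype and 5.17 to 8.84 in null lymphomas, and the null minus wildtype difference was positive for 5 of 5 with 0 called. Neutrophil markers (6 of 7 tested) had a mean log2 level of 5.55 to 8.97 in wildtype and 6.72 to 9.54 in null lymphomas, with positive differences for 6 of 6 and 0 called. B cell markers had negative differences for 5 of 5 tested (median -0.24), with 0 called. Of the NK cell markers 4 were tested and 0 called. Klrb1c, chosen after its values were seen, was detected on 4 wildtype and 0 null arrays, and Klre1 on 3 and 0. Both met the filter of 3 arrays only through the wildtype group, so their differences are not read as a result. Prf1 was detected on 6 wildtype and 6 null arrays, Klrd1 on 4 and 4, and Ncr1 on 0 in all. Macrophage markers were highest in wildtype 2 and null 2, at mean log2 levels of 7.06 and 8.03, the lymphomas with the lowest B cell markers (8.01 and 7.91). Ezh2 in those lymphomas had log2 levels of 10.46 and 10.32. The part of these cells in the Polycomb levels was not tested.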
